A study of Mus musculus with 2 samples.

Results

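The 5 genes Ifi203, Ifi204, Ifi208, Ifi209 and Ifi213 belong to the PYHIN family of the mouse, also called the Ifi200 family. They were taken by symbol from the 55357 features of each count matrix, and every one of the 5 was found in both matrices. PYHIN proteins typically join a pyrin domain, which binds other pyrin domains, to a HIN domain, which binds DNA. Aim2, a member of the wider family, assembles an inflammasome with the adaptor Pycard on cytosolic DNA, and Ifi204 is known in mouse macrophages as a DNA sensor that acts through Sting1. The Ifi200 genes lie side by side on mouse chromosome 1, and many of them are induced by type I interferon.

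The cells came from lungs of C57 mice bearing metastases of B16F10, a mouse melanoma line. The first library was made from mice whose tumour carried the IRF7-C435A mutant, and the second from mice whose tumour was wild-type for IRF7. Below they are named C435A tumour library and WT tumour library, after the tumour; the sort was for live cells with CD45, a marker of blood cells, so most of what was measured is cells of the host. IRF7 is the factor that switches on type I interferon genes in many cells. No source used here gives the way the mutant was expressed, the number of tumour clones, or the number, age and sex of the mice, and a change of 1 amino acid is not visible in gene counts, so the genotype labels were not checked. Each group is 1 library, so no difference below has a replicate check: every interval covers counting error only, and no test was made.

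After filtering there were 10271 cells with 59420595 UMIs (unique molecular identifiers, each marking 1 captured RNA molecule) in the C435A tumour library and 9999 cells with 54592546 UMIs in the WT tumour library, with medians of 3425 and 2798 UMIs per cell. The libraries shared 24 cell barcodes. Cells were placed in 18 classes by UMIs of marker genes that are not members of the family, and 16 classes with at least 50 cells in each library were compared. Leading genes fitted the class names in both libraries (Cd8b1 and Cd8a in CD8 T cells, Marco and Car4 in alveolar macrophages, F13a1 and Ccr2 in classical monocytes), although haemoglobin genes were among the 10 leading genes of WT CD4 T cells, the airway genes Scgb1a1, Bpifa1 and Reg3g among those of WT neutrophils, the antibody gene Ighg2b among those of WT regulatory T cells, and Prtn3 and Elane, granule genes of immature myeloid cells, among those of WT classical monocytes. A gate of melanoma genes also held 56 and 117 cells, led by Dct and Pmel among others, which are no blood cells. A level is given in CPM, the UMIs of a gene scaled to a fixed total of UMIs per class, and CPM is not divided by gene length, so levels are compared between classes and libraries and never between genes.

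On GRCm38 (GENCODE M21), the 5 genes span 376.39 kb of chromosome 1. Ifi213 lies at chr1:173566283-173599274 on the minus strand, Ifi209 at chr1:173630917-173647928 and Ifi208 at chr1:173673675-173698395 on the plus strand, and Ifi204 at chr1:173747293-173766943 and Ifi203 at chr1:173920407-173942672 on the minus strand. RefSeq promoters on GRCm38.p6 were matched for 4 of the 5 genes, and Ifi203 has 2 entries. The stretches below are shown because 3 of the 4 genes hold the same 10 bases shortly before the start, written in capitals, which match GAAANNGAAA, the core letters of an interferon-stimulated response element.
Ifi208, chr1:173673572-173673641, plus strand: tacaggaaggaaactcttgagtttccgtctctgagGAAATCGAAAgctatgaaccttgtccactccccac
Ifi213, chr1:173599311-173599380, minus strand: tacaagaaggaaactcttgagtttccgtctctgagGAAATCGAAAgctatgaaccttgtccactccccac
Ifi209, chr1:173630745-173630814, plus strand: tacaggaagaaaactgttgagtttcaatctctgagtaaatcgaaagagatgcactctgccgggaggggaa
Ifi203, chr1:173942493-173942562, minus strand: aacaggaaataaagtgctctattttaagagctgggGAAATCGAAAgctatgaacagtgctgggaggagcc

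The match covers bases 58 to 49 before the start in Ifi208, 73 to 64 in Ifi213 and 35 to 26 in the second Ifi203 entry. In Ifi209 the aligned 10 bases carry G1T, counted from 1 at the first base of the element, and so do not match. The first Ifi203 entry had no match in its 250 bases. On either strand, the motif was found in 978 of 32851 RefSeq promoters of the same 250 bases, or 2.98%. TTCNNNGAA, the letters of a gamma-activated site, was found in 7.02% of them and in none of the members' windows. The upstream stretches of Ifi208 and Ifi213 were identical at 233 of 235 aligned bases (99.1%), against 84.0% for Ifi208 and Ifi209. These matches describe letters and not binding.

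Such close copies also limit the counts. Of all 91-base stretches in the last 500 bases of its protein-coding transcripts, Ifi209 shared 58.5% with Ifi214, Ifi213 shared 7.32% with Ifi208, and Ifi208 shared 1.71% with Ifi213, whereas Ifi203 and Ifi204 shared 0 of 820 and 0 of 410 with any gene. Counts of Ifi209 against Ifi214 are therefore uncertain, since reads from the shared part fit both genes.

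Over all kept cells, Ifi204 was lower in the C435A tumour library. It had 1581 UMIs and 26.6 CPM in the C435A tumour library, against 2349 UMIs and 43.0 CPM in the WT tumour library. Its log2 ratio (C435A over WT) was -0.69 (95% counting interval -0.79 to -0.60), and -0.42 with each cell thinned to 1000 UMIs. Ifi213 was at 28.5 CPM in the C435A tumour library and 34.4 CPM in the WT tumour library (-0.27, and -0.54 after thinning). Ifi203 was at 159 and 154 CPM (0.04), and Ifi209 at 107.9 and 99.4 CPM (0.12), C435A first, but both turned to the lower side after thinning (-0.18 and -0.06) and without the top 5% of cells by UMIs (-0.13 and -0.06). Ifi208 was at 26.1 CPM in the C435A tumour library and 27.2 CPM in the WT tumour library (-0.06, which became 0.01 under TMM scaling and 0.06 under median-ratio scaling). Thus 1 of 5 members lay past 1.5-fold lower and 0 past 1.5-fold higher, where 18.1% of the 18102 genes with at least 20 UMIs lay past 1.5-fold lower and 7.8% past 1.5-fold higher. The call of Ifi204 ended after thinning, under median-ratio scaling (-0.57) and without cells that hold interferon response transcripts (-0.52). Sums over all cells mix the level per cell with the mix of cell types, and fewer cells of a type cannot be told apart there from less RNA per cell, so the classes are described next.

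Each gene had its own distribution over the classes, as the plot of levels by class shows. Ifi204 was a gene of monocytes and macrophages: monocytes, macrophages and neutrophils held 70.4% of its UMIs in assigned cells of the C435A tumour library and 86.0% in those of the WT tumour library, against 17.2% and 28.6% of all UMIs of assigned cells. Ifi208 and Ifi213 were mainly T cell genes. T cells held 81.6% and 77.0% of Ifi208 UMIs and 71.8% and 70.5% of Ifi213 UMIs, against 49.1% and 29.8% of all UMIs, C435A first. Ifi203 and Ifi209 were spread over T cells, B cells, NK cells and monocytes.

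**Figure D1:**
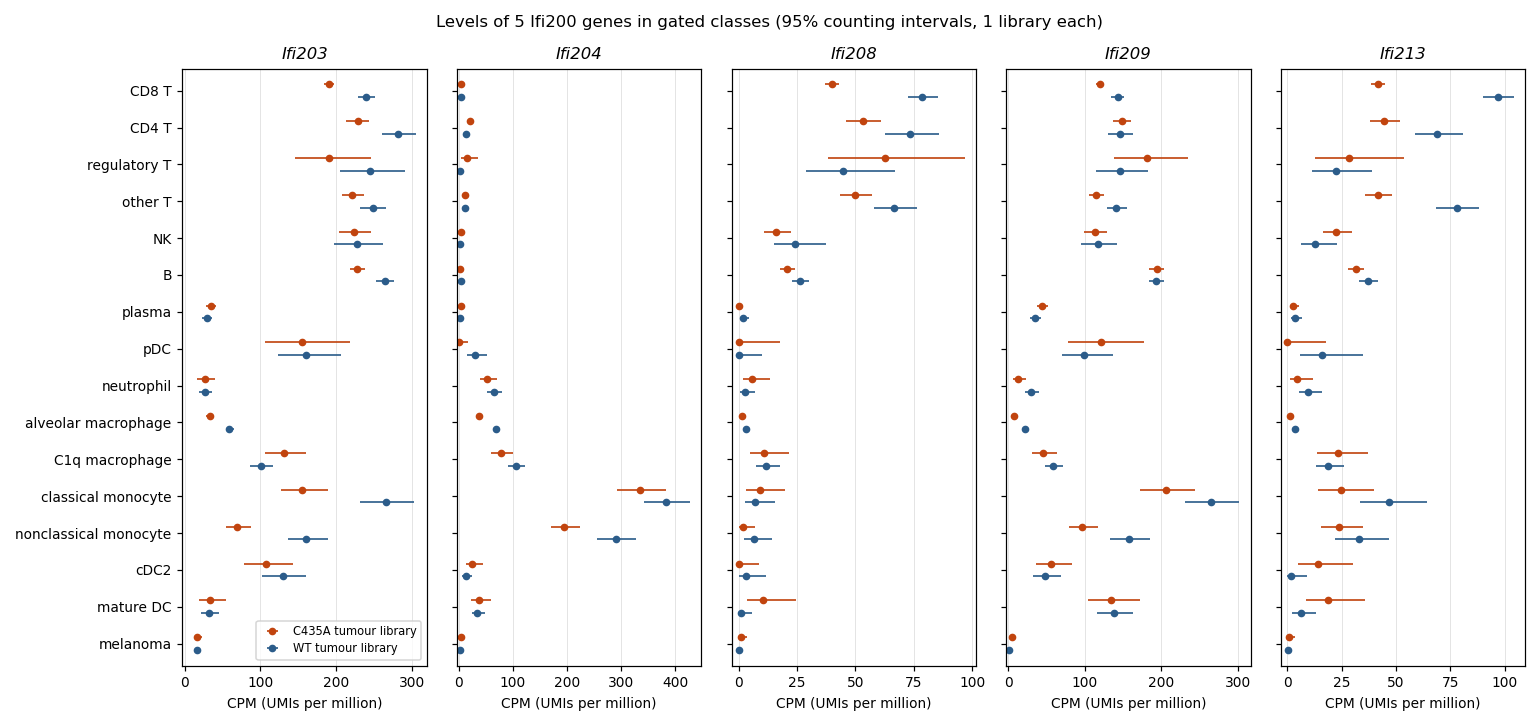
Levels of each gene (CPM, linear axis) in the 16 compared classes, with orange points for the C435A tumour library above blue points for the WT tumour library, and lines for 95% counting intervals. Ifi204 peaks in classical monocytes (335.5 and 382 CPM), Ifi208 and Ifi213 in T cells, and Ifi203 and Ifi209 are present in most lymphocytes and in monocytes.

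Ifi204 was highest in classical monocytes, the Ly6c2-type blood monocytes that enter inflamed tissue, with 218 UMIs and 335.5 CPM in the C435A tumour library and 318 UMIs and 382 CPM in the WT tumour library. Nonclassical monocytes, the Treml4-positive patrolling type, came next with 195 and 289.9 CPM. In the mean of both libraries the order went on with C1q macrophages (77.8 and 106 CPM), neutrophils (52.9 and 65.4 CPM) and alveolar macrophages (38.2 and 68.8 CPM), C435A first. Intervals of classical and nonclassical monocytes, and of nonclassical monocytes and C1q macrophages, did not overlap in either library, while those of C1q macrophages and neutrophils overlapped in 1 library and those of neutrophils and alveolar macrophages in both.

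In lymphocytes Ifi204 was low. It was at 3.14 and 4.94 CPM in B cells, 4.67 and 5.26 CPM in CD8 T cells and 4.37 and 3.48 CPM in NK cells, C435A first. Droplets also hold free RNA from other cells, so these levels were set beside a list of 10 abundant myeloid transcripts such as Lyz2 and S100a8. In B cells Ifi204 stood at 0.94% and 1.29% of its classical monocyte level, and the myeloid list at 2.07% and 4.38% of its own. For CD8 T cells the values were 1.39% and 1.37% for Ifi204 against 2.72% and 4.63% for the list, and for NK cells 1.30% and 0.91% against 1.72% and 4.85%. In these 3 classes Ifi204 thus stood below the list by this measure, and its ratio between the libraries there is not read. The list cannot set the background of Ifi204 itself, since the 2 differ among myeloid cells. In neutrophils the list stood at 360% and 524% of its classical monocyte level, and Ifi204 at 15.8% and 17.1%. The part of free RNA in the Ifi204 of these classes was not tested. CD4 T cells of the C435A tumour library differed: Ifi204 was at 6.45% of its monocyte level and the list at 3.36%, whereas in the WT tumour library Ifi204 was at 3.75% and the list at 6.14%.

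Ifi208 was highest in T cells, with 53.1 and 73.5 CPM in CD4 T cells and 39.9 and 78.7 CPM in CD8 T cells, C435A first. B cells had 20.9 and 26.2 CPM and NK cells 16.0 and 24.4 CPM, alveolar macrophages 1.54 and 3.13 CPM, and plasmacytoid dendritic cells 0 UMIs in both libraries (3 UMIs there would be 14.5 and 8.04 CPM). Ifi213 followed the same broad order: CD8 T cells had 41.6 and 96.8 CPM, CD4 T cells 44.6 and 69.1 CPM, B cells 31.5 and 37.3 CPM and alveolar macrophages 1.15 and 3.63 CPM. The 2 genes with nearly identical upstream stretches were thus both highest in T cells, but Ifi213 was also at 24.6 and 46.9 CPM in classical monocytes and 23.7 and 32.8 CPM in nonclassical monocytes, where Ifi208 had 2 to 6 UMIs a library.

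Ifi203 was highest in T, B and NK cells. Its 6 highest classes in the mean of both libraries were CD4 T (229 and 282 CPM), B (228 and 265 CPM), other T, NK (224 and 227 CPM), regulatory T and CD8 T cells (191 and 240.2 CPM), and the intervals of neighbours in this order overlapped in both libraries. Classes further apart differed: the interval of CD8 T cells (184 to 198 and 229 to 252 CPM) lay below those of CD4 T and B cells in both libraries. It was lowest in melanoma-gated cells (16.8 and 16.6 CPM), neutrophils (26.4 and 26.6 CPM) and plasma cells (34.5 and 29.4 CPM). Plasma cells thus held far less Ifi203 per UMI than the B cells from which they arise, and the same was seen for Ifi209, at 44.2 and 34.5 CPM in plasma cells and 194 and 193 CPM in B cells. This is not a level per cell: median depths were 14953 and 18875 UMIs in plasma cells and 2130 and 1924 in B cells. Without thinning, 42.0% and 31.2% of plasma cells and 41.2% and 39.6% of B cells had a UMI of Ifi209. For Ifi203 these shares were 31.1% and 26.1%, and 45.6% and 46.2%. The part of antibody RNA in the plasma cell levels was not tested. Ifi209 was highest in classical monocytes (206 and 265 CPM), followed by B cells, and mature dendritic cells had 134.5 and 138 CPM of Ifi209 although they held little Ifi203 (33.6 and 31.7 CPM).

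Shares of cells with a UMI followed the same pattern. After thinning each cell to 1000 UMIs, 24.8% of 121 classical monocytes in the C435A tumour library and 34.4% of 128 in the WT tumour library had a UMI of Ifi204 (67.8% and 79.7% unthinned; median depths 4941 and 5930 UMIs). In B cells, where Ifi204 was low, the thinned shares were 0.13% and 0.26% (unthinned 0.92% and 0.93%, median depths 2130 and 1924 UMIs). For Ifi208, 5.01% of CD8 T cells had a UMI after thinning in the C435A tumour library, against 8.06% in the WT tumour library (unthinned 20.9% and 23.0%, median depths 4673.5 and 3181 UMIs), against 0.16% and 0.49% of alveolar macrophages (median depths 7274 and 11677 UMIs). For Ifi213 the thinned shares in CD8 T cells were 5.99% and 9.91%. At least 1 of the 5 genes was seen in 45.5% and 59.4% of thinned classical monocytes and in 35.5% and 42.3% of thinned CD8 T cells.

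Between the libraries, the 5 genes in 16 classes make 80 pairs, of which 61 had at least 20 UMIs over both libraries. Of these, 3 lay past 1.5-fold higher in the C435A tumour library and 16 past 1.5-fold lower. The 16 include Ifi204 in B cells, whose ratio is not read, as given above. Over the same 16 classes, 12.1% of 140591 pairs of a gene and a class lay past 1.5-fold higher and 10.7% past 1.5-fold lower. The 16 lower pairs fell mainly in macrophages, monocytes and T cells, as the plot of ratios by class shows.

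**Figure D2:**
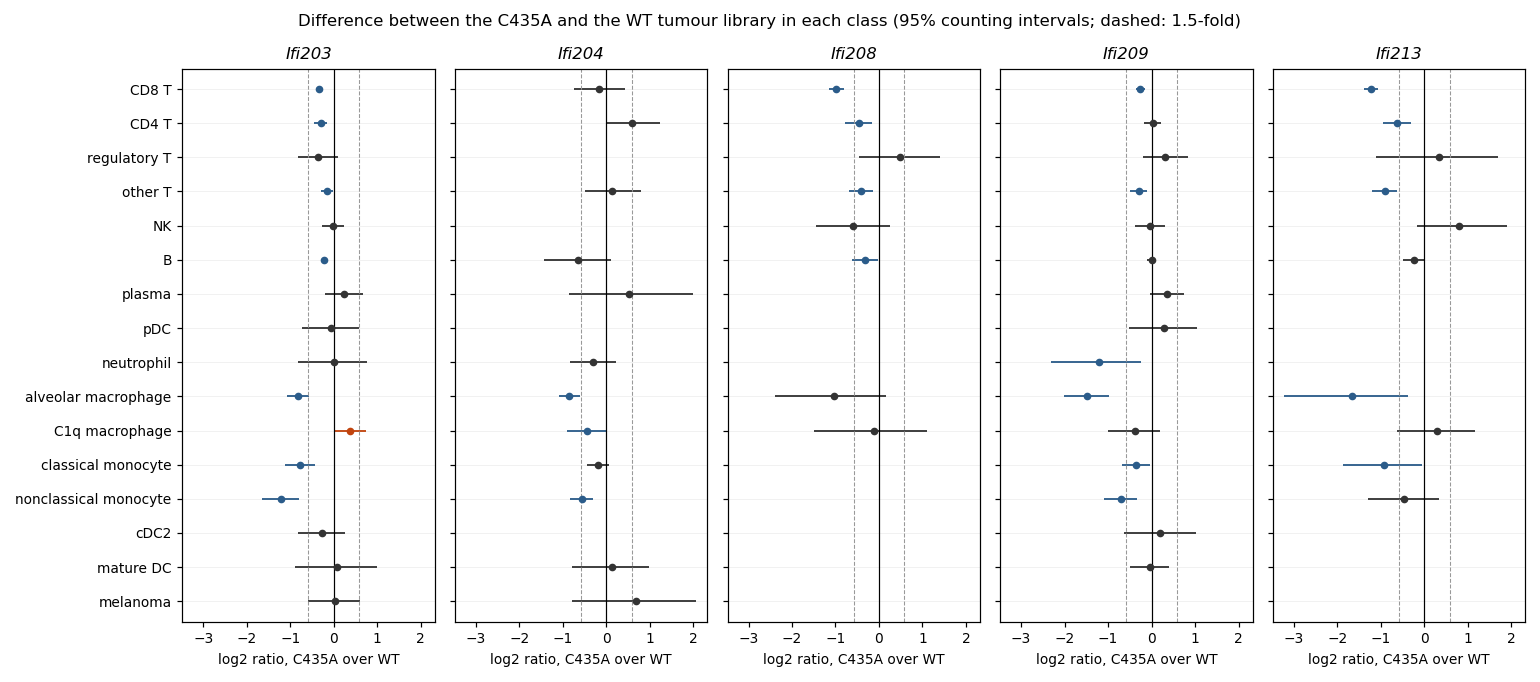
Log2 ratio of each gene, C435A tumour library over WT tumour library, in each class with at least 20 UMIs over both libraries; lines are 95% counting intervals and dashed lines mark 1.5-fold. Blue marks intervals wholly below 0, orange wholly above 0 and black those that hold 0: the values run from -1.66 for Ifi213 in alveolar macrophages to 0.81 for Ifi213 in NK cells.

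Alveolar macrophages, the resident macrophages of the lung air spaces, were lower in all 5 members, each of which had at least 20 UMIs. Ifi204 was at 38.2 CPM from 199 UMIs in the C435A tumour library and 68.8 CPM from 549 UMIs in the WT tumour library (log2 ratio -0.85, -1.09 to -0.61). Ifi203 was at 33.6 and 59.2 CPM (-0.82, -1.08 to -0.56), and Ifi209 at 7.87 and 21.9 CPM (-1.48, -2.01 to -0.98). The 2 T cell genes were scarce in these cells: Ifi213 had 6 and 29 UMIs (-1.66, -3.22 to -0.36) and Ifi208 had 8 and 25 UMIs (-1.03, -2.39 to 0.16). All 5 of 5 thus lay past 1.5-fold lower, where 7.16% of the 11533 genes measured in this class did and 11.6% lay past 1.5-fold higher. The median of all genes in this class was 0.13 on the log2 scale. TMM scaling, with a shift of 0.15, put the 5 values between -1.81 and -0.97. After thinning Ifi213 was at -0.01.

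The lower values in alveolar macrophages depended on how cells with markers of several types were treated. When every cell was counted in each class whose gate it passed, Ifi204 stayed lower (-0.72), but Ifi203 (0.14), Ifi209 (0.15), Ifi208 (0.75) and Ifi213 (0.53) were higher in the C435A tumour library; the added cells carry markers of lymphocytes or other cells beside those of macrophages. In the cells assigned to this class, summed T cell transcripts (4 of 4 detected) were at 36.9 CPM in the C435A tumour library and 30.6 CPM in the WT tumour library, and B cell transcripts (4 of 4) at 37.0 and 30.8 CPM.

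Both monocyte classes were lower in Ifi203. In nonclassical monocytes it was at 69.2 CPM from 73 UMIs in the C435A tumour library and 161 CPM from 147 UMIs in the WT tumour library (-1.22, -1.64 to -0.80). Ifi209 was at 96.7 and 158 CPM (-0.70), Ifi204 at 195 and 289.9 CPM (-0.57, -0.84 to -0.30) and Ifi213 at 23.7 and 32.8 CPM (-0.47, -1.30 to 0.35). Ifi203 and Ifi209 lay past 1.5-fold lower, 2 of the 4 measured, against 10.3% of 7654 genes lower and 9.62% higher. Counting cells in every class whose gate they passed turned Ifi203 to 0.10, Ifi209 to 0.13 and Ifi213 to 0.26 and left Ifi204 at -0.43, and a gate minimum raised by 1 UMI put Ifi209 at -0.40.

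In classical monocytes Ifi203 was at 155 CPM in the C435A tumour library and 266 CPM in the WT tumour library (-0.77, -1.13 to -0.43), and Ifi213 at 24.6 and 46.9 CPM from 16 and 39 UMIs (-0.93, -1.87 to -0.06). Ifi209 was at 206 and 265 CPM (-0.36), and Ifi204, highest in this class, at 335.5 and 382 CPM (-0.19, -0.44 to 0.06). Here 2 of 4 measured members lay past 1.5-fold lower, against 10.1% of 6860 genes lower and 8.59% higher. The alternative with cells in several classes gave -0.07 for Ifi203 and -0.22 for Ifi213, and thinning -0.50 for Ifi213. The part of the cells with Prtn3 and Elane in these ratios was not tested. In C1q macrophages Ifi203 was at 131 CPM in the C435A tumour library and 100.8 CPM in the WT tumour library (0.38, 0.01 to 0.74), and Ifi204 at 77.8 and 106 CPM (-0.45, -0.90 to -0.02). No member lay past 1.5-fold in that class, where 9.48% of genes were past it lower and 9.69% higher. In neutrophils Ifi209 was at 12.6 and 29.3 CPM from 11 and 43 UMIs (-1.21), the only 1 of 3 measured members past 1.5-fold, against 9.85% of genes lower and 10.4% higher; with cells counted in several classes it was at 0.15.

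In CD8 T cells the 2 T cell members were lower. Ifi213 was at 41.6 CPM from 658 UMIs in the C435A tumour library and 96.8 CPM from 718 UMIs in the WT tumour library (-1.22, -1.37 to -1.06). Ifi208 was at 39.9 CPM from 632 UMIs and 78.7 CPM from 584 UMIs (-0.98, -1.14 to -0.81). Ifi203 was at 191 and 240.2 CPM (-0.33) and Ifi209 at 119.8 and 143 CPM (-0.26). Thus 2 of 5 members lay past 1.5-fold lower and 0 higher, where 21.4% of 12963 genes lay past 1.5-fold lower and 17.3% higher. TMM scaling, with a shift of -0.12 in this class, left the values at -1.1 for Ifi213, -0.86 for Ifi208, -0.21 for Ifi203 and -0.13 for Ifi209. Counting cells in several classes gave -0.98 for Ifi213 and -0.79 for Ifi208, and thinning -0.80 and -0.69. Under the gate rule as first written, with every cell passing several gates left out, both were at -0.69. These values of Ifi213 and Ifi208 lay outside their counting intervals but stayed past 1.5-fold lower.

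The mix of CD8 T cell states differed between the libraries, and the ratios of Ifi213 and Ifi208 were closer to 0 within each state than in the class. Cycling cells, with at least 2 UMIs of 5 division genes such as Mki67 and Top2a, made up 42.1% of CD8 T cells in the C435A tumour library, against 4.41% in the WT tumour library, and naive cells 13.4% and 42.2%. In cycling CD8 T cells Ifi213 was at 21.4 CPM in the C435A tumour library and 34.7 CPM in the WT tumour library (-0.70). In effector CD8 T cells it was at 79.8 and 96.9 CPM (-0.28, -0.50 to -0.06), and in naive cells at 99.9 and 118 CPM (-0.24, -0.59 to 0.10). Ifi208 was likewise lowest in cycling cells: these were at 25.4 and 34.7 CPM (-0.45), effector cells at 70.6 and 85.4 CPM (-0.27) and naive cells at 67.7 and 84.9 CPM (-0.33). With the 3 states weighted alike the class ratio was -0.31 for Ifi213 and -0.32 for Ifi208, and without cycling cells -0.34 and -0.28, against -1.22 and -0.98 in the whole class. For Ifi203 and Ifi209, leaving out cycling cells gave 0.06 and 0.23, the opposite sign, while in cycling cells Ifi203 was at -0.13 and Ifi209 at -0.52 (-0.79 to -0.24).

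Within each library, cycling T cells held less Ifi208 and Ifi213 per UMI than naive T cells. Cycling CD8 T cells were deeper, with medians of 9175.5 and 7314 UMIs against 2747 and 2919 in naive ones, C435A first. Levels here are per UMI and not per cell. The log2 ratio of cycling over naive CD8 T cells was -2.22 for Ifi213 and -1.41 for Ifi208 in the C435A tumour library, and -1.76 and -1.29 in the WT tumour library. In CD4 T cells it was -2.03 for Ifi213 and -1.73 for Ifi208 in the C435A tumour library, and -2.17 and -1.84 in the WT tumour library, where cycling CD4 T cells held only 7 and 9 UMIs. Ifi203 was lower by less, at -0.53 in CD8 T cells of both libraries. Effector CD8 T cells that did not cycle were near naive ones for Ifi208 (0.06 and 0.01), as the plot of levels by T cell state shows. For Ifi213 they were somewhat lower, at -0.32 (-0.66 to 0.03) and -0.28 (-0.51 to -0.06), C435A first.

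**Figure D3:**
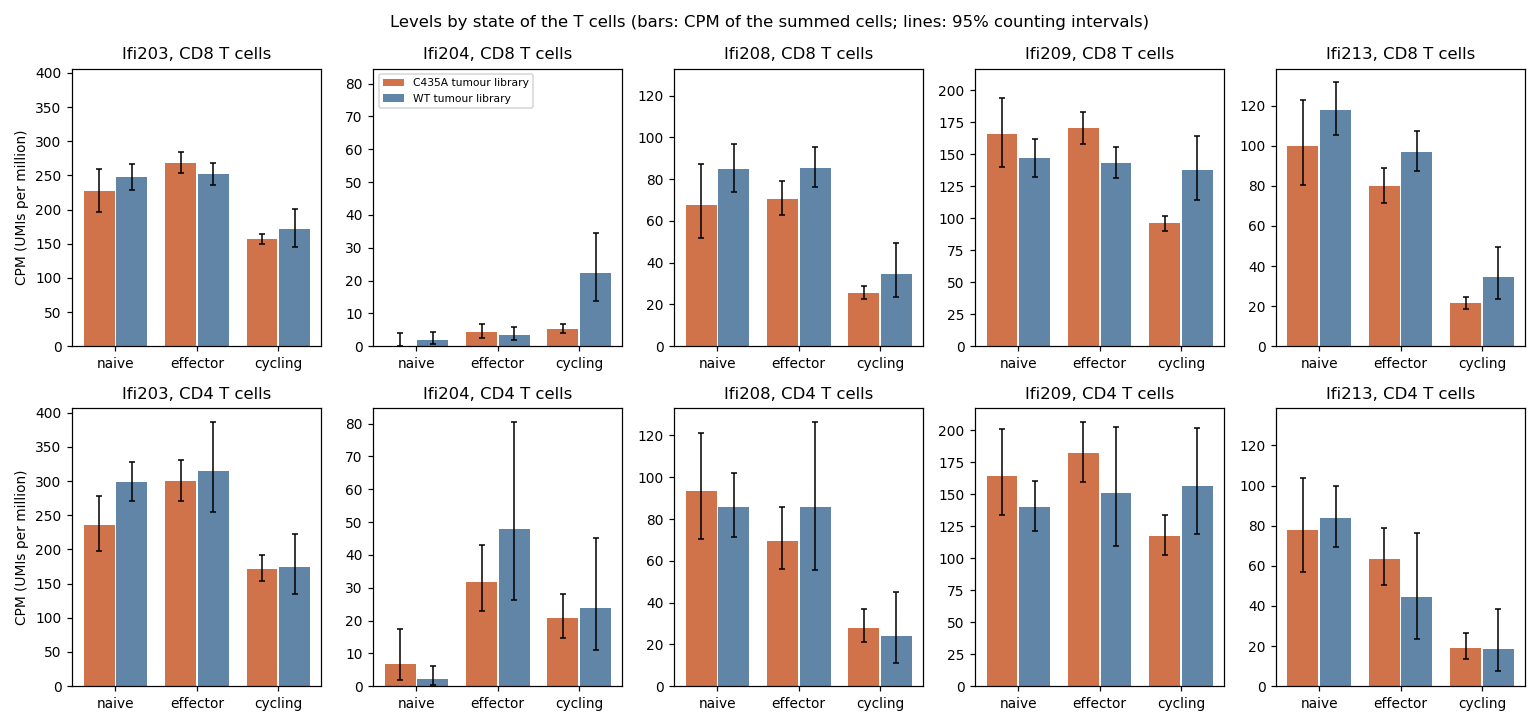
Levels (CPM, bars from 0) of each gene in naive, effector and cycling CD8 T cells (top) and CD4 T cells (bottom), with the C435A tumour library in orange left of the WT tumour library in blue and 95% counting intervals as lines. Cycling cells are lowest for Ifi208 (25.4 and 34.7 CPM) and Ifi213 (21.4 and 34.7 CPM) in CD8 T cells of both libraries. Ifi204 is lowest in naive cells of both classes (6.78 and 2.07 CPM in CD4 T cells).

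Ifi204 took the other direction in CD4 T cells, with its lowest level in naive ones. In CD8 T cells naive ones were also lowest, but at 0 and 1.92 CPM from 0 and 5 UMIs, C435A first. Effector CD8 T cells were at 4.25 and 3.38 CPM and cycling ones at 5.25 and 22.4 CPM. The interval of effector over naive CD8 T cells held 0 in both libraries. In CD4 T cells of the C435A tumour library it was at 20.6 CPM in cycling, 31.7 CPM in effector and 6.78 CPM in naive cells, and in those of the WT tumour library at 23.9, 48.0 and 2.07 CPM. Effector over naive CD4 T cells gave log2 ratios of 2.23 (0.76 to 4.17) and 4.53 (2.69 to 6.97), with 4 and 3 UMIs in the naive cells. As a class, CD4 T cells of the WT tumour library had Ifi204 below the share given by the myeloid list. The part of free or captured myeloid RNA in these values was not tested.

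In CD4 T cells as a class, Ifi213 was at 44.6 CPM in the C435A tumour library and 69.1 CPM in the WT tumour library (-0.63, -0.95 to -0.31), Ifi208 at 53.1 and 73.5 CPM (-0.47) and Ifi203 at 229 and 282 CPM (-0.31). Ifi204 was at 21.7 and 14.4 CPM (0.59, -0.01 to 1.23) and Ifi209 at 148 and 146 CPM (0.02). Past 1.5-fold lay Ifi213 on the lower side and Ifi204 on the higher side, 1 of 5 each, against 13.2% of 10571 genes lower and 16.3% higher. Cycling cells were 28.5% of CD4 T cells in the C435A tumour library, against 5.44% in the WT tumour library, and with states weighted alike Ifi213 was at 0.14, Ifi208 at -0.07 and Ifi204 at -0.38. With cells counted in several classes Ifi213 was at -0.39 and Ifi204 at 0.25. The class called other T took the remaining cells of the T gate. These had no UMI of Cd4, Cd8a, Cd8b1, Foxp3 or Trdc, or had UMIs that mark more than 1 T class, Cd4 with Foxp3 aside. In other T cells Ifi213 was at 41.5 and 77.8 CPM (-0.91, -1.19 to -0.62), the only member of the 5 past 1.5-fold, against 11.4% of 11162 genes lower and 14.4% higher. This call ended with cells counted in several classes (-0.43) and with every such cell left out (-0.47).

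In B cells and NK cells the 2 members with the most UMIs, Ifi203 and Ifi209, were close between the libraries. In B cells Ifi203 was at 228 CPM in the C435A tumour library and 265 CPM in the WT tumour library (-0.21, -0.30 to -0.12), Ifi209 at 194 and 193 CPM (0.00), Ifi208 at 20.9 and 26.2 CPM (-0.33) and Ifi213 at 31.5 and 37.3 CPM (-0.24). Only Ifi204, 1 of 5 and low in B cells (26 and 39 UMIs), lay past 1.5-fold lower, against 7.38% of genes lower and 3.69% higher. It is counted here, but its ratio is not read, since Ifi204 stood below the myeloid list in B cells. In NK cells Ifi203 was at 224 and 227 CPM and Ifi209 at 113.6 and 117 CPM (log2 ratios -0.02 and -0.04, which became 0.06 and 0.03 under TMM scaling). Ifi213 had 46 and 11 UMIs there (0.81, -0.16 to 1.91, and -0.44 with cells counted in several classes) and Ifi208 had 33 and 21 (-0.60, -1.44 to 0.26, and -0.53 under TMM scaling), so 1 of 4 measured members lay past 1.5-fold on each side, against 7.09% of genes higher and 9.92% lower.

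In the 6 remaining classes most members had few UMIs. Regulatory T cells had 0 of 4 measured members past 1.5-fold (11.0% of genes lower, 14.7% higher), with Ifi203 at 191 and 245 CPM (-0.36) and Ifi209 at 182 and 146 CPM (0.32); summed myeloid transcripts (10 of 10 detected) were at 3870 CPM in this class of the C435A tumour library and 1029 CPM in that of the WT tumour library, and their part was not tested. Plasma cells had 0 of 3 (4.27% lower, 25.7% higher); Ifi203 there was at 0.23, below the 0.33 median of all genes, and at -0.05 under TMM scaling, which shifts this class by 0.29. Plasmacytoid dendritic cells (14.5% lower, 10.9% higher) and type 2 dendritic cells (11.9% lower, 13.4% higher) each had 0 of 2, with Ifi203 at 154 and 161 CPM in the plasmacytoid and 107 and 129 CPM in the type 2 cells. Mature dendritic cells had 0 of 3 (14.1% lower, 12.2% higher). In melanoma-gated cells Ifi204, with 8 and 13 UMIs, was 1 of 2 measured members past 1.5-fold and on the higher side (0.68, -0.80 to 2.06, and 0.37 with cells counted in several classes; 6.26% of genes lower, 7.55% higher).

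To set the family beside a direct sign of interferon response, cells with at least 2 UMIs of Ifit1, Ifit3, Rsad2 and Isg15, which are strongly induced by type I interferon and are not members, were compared with the other cells of their class and library, where each side had at least 30 cells. Such cells held more of every member in most places. Ifi204 had a median log2 ratio of 2.07 over 14 pairs of class and library (range -0.07 to 3.66), and of 1.61 over the 5 pairs of monocytes, macrophages and neutrophils (1.5 to 2.26), the classes where it is highest. Ifi213 had a median of 1.29 over 11 pairs (0.25 to 3.18), Ifi209 of 1.00 over 14 (0.00 to 2.40), Ifi208 of 1.00 over 10 (0.39 to 3.08) and Ifi203 of 0.87 over 16 (0.38 to 2.63). These medians come from unlike sets of pairs, and Ifi209 shares most of its 3′ stretches with Ifi214. The part of the upstream element in them was not tested.

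**Figure D4:**
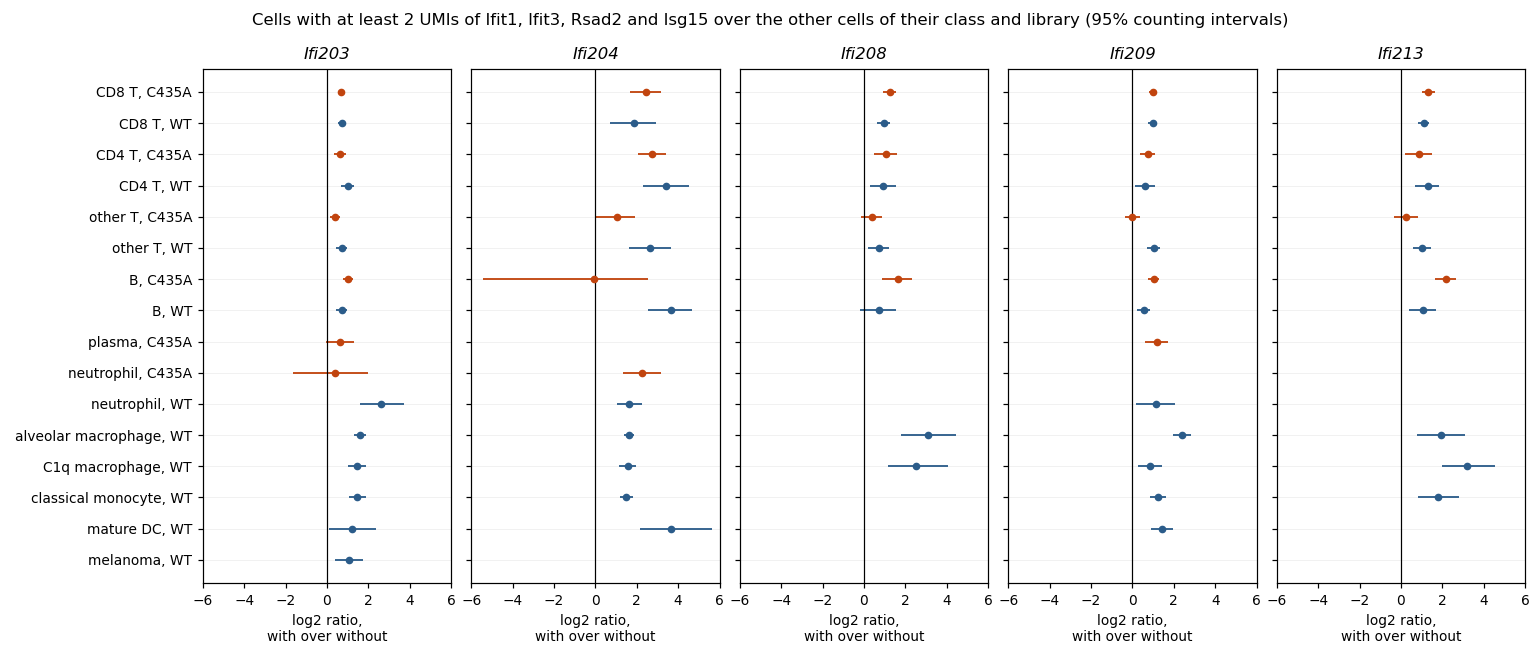
Log2 ratio of each gene in cells with interferon response transcripts over the other cells of the same class and library, for the C435A tumour library (orange) and the WT tumour library (blue), with 95% counting intervals. Most points lie right of 0; the exceptions at or near 0 are Ifi204 in B cells (-0.07) and Ifi209 in other T cells (0.00) of the C435A tumour library.

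In CD8 and CD4 T cells the intervals of all 5 members lay above 0 in both libraries. In other T cells those of Ifi208, Ifi209 and Ifi213 held 0 in the C435A tumour library (0.39, 0.00 and 0.25) and lay above 0 in the WT tumour library (0.73, 1.03 and 1.02), and in neutrophils Ifi203 was at 0.39 (-1.63 to 1.98) and 2.63 (1.60 to 3.75), C435A first. In CD8 T cells Ifi213 was at 93.6 CPM with and 37.5 CPM without these transcripts in the C435A tumour library (1.32, 1.01 to 1.62), and at 187 and 87.1 CPM in the WT tumour library (1.1, 0.82 to 1.38). In alveolar macrophages of the WT tumour library, Ifi204 was at 155 CPM with and 50.7 CPM without them (1.61, 1.36 to 1.86), Ifi203 at 132.5 and 43.7 CPM (1.60), and Ifi209 at 66.3 and 12.6 CPM (2.40). In classical monocytes of the WT tumour library Ifi204 was at 743 and 263 CPM (1.5, 1.17 to 1.83). Cells with these transcripts were deeper in most classes, with a median of 14923 against 11278 UMIs in WT alveolar macrophages and 6039 against 2117 UMIs in B cells of the C435A tumour library. The part of depth and of droplets with more than 1 cell in these ratios was not tested.

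A smaller share of alveolar macrophages had these transcripts in the C435A tumour library: 18 of 625 (2.88%), against 79 of 619 (12.8%) in the WT tumour library, or 1.77% and 6.16% with any such UMI after thinning. For nonclassical monocytes the thinned shares were 4.64% and 9.42%, for classical monocytes 10.7% and 18.0% and for CD8 T cells 6.45% and 10.1%, C435A first. The thinned share was higher in the C435A tumour library in neutrophils (26.3% and 24.8%), plasma cells (8.29% and 5.07%) and plasmacytoid dendritic cells (5.88% and 4.35%). It was lower in the remaining classes. The 2 intervals were apart only in alveolar macrophages (0.88% to 3.14% and 4.39% to 8.36%) and CD8 T cells (5.5% to 7.52% and 8.77% to 11.5%). In every other class, whether higher or lower, they overlapped. Without these cells, the ratio in alveolar macrophages was -0.46 for Ifi203, -0.58 for Ifi204 and -0.92 for Ifi209, against -0.82, -0.85 and -1.48 with them. In nonclassical monocytes Ifi203 stayed at -1.24 without them and Ifi204 at -0.49, and over all kept cells Ifi204 moved to -0.52. In CD8 T cells the values hardly moved, with -1.22 for Ifi213 and -0.99 for Ifi208.

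A list of 40 genes of the type I interferon response showed where other interferon-induced genes stood. In alveolar macrophages 25 of 39 measured genes lay past 1.5-fold lower and 0 higher, with a median log2 ratio of -1.07, against 0.13 for all genes there. The list was thus low as a whole there, although single genes were not: its 3 genes with the most UMIs in that class were Ifi27l2a (159 and 423 CPM, -1.41), Samhd1, an enzyme that breaks down nucleotides (324 and 246 CPM, 0.40), and Bst2, which tethers virus particles (142 and 261 CPM, -0.87). In CD8 T cells 21 of 40 lay past 1.5-fold lower and 1 higher (median -0.59, all genes -0.04), with Ifi27l2a at 427 and 558 CPM, Sp100 at 454 and 345 CPM and Samhd1 at 231 and 241 CPM. In CD4 T cells it was 12 lower and 0 higher of 37 (median -0.25), with Ifi27l2a at 1262 and 1023 CPM, Samhd1 at 354 and 299.5 CPM and Sp100 at 332.5 and 326 CPM. Nonclassical monocytes had 22 of 37 lower and 1 higher (median -0.74, all genes 0.02), plasmacytoid dendritic cells 9 of 21 lower and 0 higher (median -0.47), other T cells 12 of 38 lower and 1 higher (median -0.36), C1q macrophages 14 of 36 lower and 1 higher (median -0.34) and neutrophils 10 of 34 lower and 1 higher (median -0.22). Mature dendritic cells went the other way, with 12 of 30 higher and 1 lower (median 0.30). Classical monocytes had 5 of 38 lower and 2 higher (median -0.16), with Ifi27l2a at 1708 and 2075 CPM, Samhd1 at 902 and 854 CPM and Slfn5 at 297 and 454.5 CPM. B cells had 1 of 39 lower and 2 higher (median -0.05; Ifi27l2a at 482.5 and 662, Samhd1 at 344 and 353 and Sp100 at 267 and 268.5 CPM), NK cells 2 of 24 lower and 1 higher (median 0.01; Sp100 at 413 and 371, Samhd1 at 185.5 and 138 and Trim30a at 113 and 99.8 CPM), and all kept cells 13 of 40 lower and 0 higher (median -0.26; Ifi27l2a at 515 and 607 CPM). The list and the members did not move together in every class: in alveolar macrophages and nonclassical monocytes both the list and 2 or more members lay lower, classical monocytes had 2 of 4 members past 1.5-fold lower but 5 of 38 list genes, and C1q macrophages 14 of 36 list genes but 0 members. The list and the members share cells and libraries. Among all genes, 7.16% lay past 1.5-fold lower in alveolar macrophages, 21.4% in CD8 T, 13.2% in CD4 T and 11.4% in other T cells. The share was 10.3% in nonclassical and 10.1% in classical monocytes, 14.5% in plasmacytoid dendritic cells, 9.48% in C1q macrophages and 9.85% in neutrophils. B cells, NK cells and all kept cells had 7.38%, 9.92% and 18.1%. In mature dendritic cells 12.2% of all genes lay higher and 14.1% lower.

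Of 8 other PYHIN genes in the files, 7 were measured over all kept cells, with 3 past 1.5-fold lower and 0 higher (all genes 18.1% and 7.8%). Mndal, a HIN gene of the same cluster, was at 183 CPM in the C435A tumour library and 167 CPM in the WT tumour library (0.13), Ifi206 at 43.6 and 33.2 CPM (0.39) and Aim2 at 32.2 and 33.4 CPM (-0.05). The 3 lower ones were Ifi205 (-0.71), Ifi207 (-0.64) and Ifi211 (-0.66), and like Ifi204 each was highest in monocytes or mature dendritic cells; these 3 were named after their values were seen. In alveolar macrophages 3 of 6 lay past 1.5-fold lower (median -0.67, against 7.16% of all genes). The 3 with the most UMIs there were not among these: Ifi207 was at 80.4 and 90.7 CPM, Mndal at 53.7 and 75.1 CPM and Aim2 at 56.0 and 46.5 CPM (0.27). In CD8 T cells 1 of 6 did, where 21.4% of all genes did, namely Ifi214 at 54.4 and 82.9 CPM (-0.61), beside Mndal at 213 and 255 CPM and Ifi206 at 74.2 and 85.1 CPM. In nonclassical monocytes 4 of 6 lay lower (10.3% of all genes), and in mature dendritic cells 3 of 5 higher (12.2%). In classical monocytes 1 of 6 lay lower (10.1%), and 1 of 6 in B cells (7.38%), 0 of 6 in CD4 T cells (13.2%) and 0 of 4 in NK cells (9.92%). The 3 with the most UMIs in classical monocytes did not lie past 1.5-fold: Mndal was at 259 and 285 CPM, Ifi207 at 212 and 194 CPM and Ifi211 at 112 and 153 CPM.

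Genes of DNA sensing and the inflammasome went in both directions. Pycard, the inflammasome adaptor, was higher in the C435A tumour library over all kept cells (587 and 261.5 CPM, 1.17), in CD8 T cells (864 and 290.2 CPM, 1.57) and in CD4 T cells (776 and 289 CPM, 1.42), and lower in alveolar macrophages (157 and 212 CPM, -0.43). Sting1, through which Ifi204 signals, was at 54.7 and 59.3 CPM in CD8 T cells (-0.12) and 63.0 and 62.1 CPM in B cells (0.02). Of 13 measured genes of this list, 6 lay past 1.5-fold higher and 1 lower in CD8 T cells (all genes 17.3% and 21.4%), 3 and 2 in CD4 T cells (16.3% and 13.2%, close to the list's shares), and 1 and 2 in alveolar macrophages (11.6% and 7.16%), where the cytokine genes Il18 (469 and 355 CPM, 0.40) and Il1b (81.2 and 110.7 CPM, -0.45) had the most UMIs beside Pycard. Classical monocytes and B cells had 1 of 13 on each side, with Il1b at 265 and 155 CPM in classical monocytes (0.77), and NK cells 1 of 11 higher and 0 lower. Among all genes 8.59% lay higher and 10.1% lower in classical monocytes, 3.69% and 7.38% in B cells, and 7.09% and 9.92% in NK cells.

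Among 9 genes of interferon receptors and their signalling, Ifnar2, a chain of the type I receptor, was at 61.5 and 62.0 CPM over all kept cells (-0.01), and the kinase Jak1 at 322 and 245 CPM (0.39). Ifngr1, a chain of the type II receptor, was at 301 and 194 CPM in CD8 T cells (0.63), 305 and 159 CPM in CD4 T cells (0.94) and 176.5 and 121 CPM in alveolar macrophages (0.54). Of this list 1 gene lay past 1.5-fold higher and 3 lower in all kept cells, CD8 T cells and CD4 T cells alike, where the lower ones of CD4 T cells included the inhibitor Socs3 (45.1 and 126 CPM, -1.49). Among all genes 17.3% lay higher and 21.4% lower in CD8 T cells, so that the list is near them there. The shares were 16.3% and 13.2% in CD4 T cells and 7.8% and 18.1% over all kept cells. In alveolar macrophages, classical monocytes and NK cells 1 gene lay lower and 0 higher, and in B cells 0 on either side, C435A over WT.

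Across the 32 points made by 16 classes in 2 libraries, which share libraries, depth and free RNA, Ifi204 stood apart from the other members. Pearson's r of log2(CPM + 10) was 0.81 for Ifi208 and Ifi213, 0.80 for Ifi203 and Ifi209, 0.76 for Ifi203 and Ifi213, 0.73 for Ifi209 and Ifi213, 0.70 for Ifi203 and Ifi208 and 0.56 for Ifi208 and Ifi209. With Ifi204 it ran from -0.26 (Ifi208) to 0.14 (Ifi213), also for Ifi209 (0.12), which like Ifi204 is highest in classical monocytes. Of 10567 other genes, those most like Ifi204 were Gm21188 (0.94), Tlr13, a receptor for bacterial RNA (0.93), Emilin2, Csf1r, the receptor that sustains macrophages, and Clec4a3 (0.92 each). Those most like Ifi208 were Dgka (0.96), Il27ra (0.95), Dusp10 (0.94), Ifi214 and Gimap3 (0.93 each). Ifi206 (0.87), Fam78a (0.85), Atp10d, Rasgrp1 (0.83 each) and Nmi (0.82) were most like Ifi213. Mndal was the closest gene to both Ifi203 (0.95) and Ifi209 (0.91). Mndal is itself a PYHIN gene of the cluster. Next for Ifi203 came Ptpn18 (0.88), Ifi47, Ep400 and Macf1 (0.86 each), and for Ifi209 Sp110, Clec2i (0.87 each) and the peptide transporter gene Tap1 (0.84). The part of shared sequence in the likeness of Ifi213 to Ifi208 and Ifi206 was not tested.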

How the data were processed

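The deposited values are UMI counts per gene and barcode, made with Cell Ranger 7.2.0 per the file headers, on GRCm38 per the submitters' processing notes. Per the labels' protocols the sort took CD45-positive cells that excluded 7-AAD, a dye of dead cells; the same protocols name both BD Rhapsody and 10x 3′ V3 capture, so the platform is uncertain. A cell type label reads melanoma cell although CD45 was sorted for. No source used here gives the annotation release, strand and intron settings or the number of animals. The text tables with the same barcodes were not used here.

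Filters (200 genes, 500 UMIs, less than 20% mitochondrial UMIs) took out 102 barcodes of the C435A and 157 of the WT tumour library. Cells were gated on summed UMIs of fixed markers in 14 gates, 9073 and 8916 cells in all. A cell passing several gates went to the highest score if this was 3 times the next and was otherwise left out (873 and 725 cells, median 7729 and 7950 UMIs), which also removes many doublets; no doublet caller was run. No gate was passed by 325 and 358 cells. This rule, and the need for F13a1 or Vcan in classical monocytes, was set after the data were seen.

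UMIs were summed per class and library. CPM has exact Poisson intervals, log2 ratios (C435A over WT) have exact conditional intervals and shares Clopper-Pearson intervals, all at 95% and for counting error only; UMIs in droplets are otherwise taken as independent molecules. A gene counts as measured with at least 20 UMIs over both libraries, and ratios are described as past or not past 1.5-fold. The floor for 0 is 3 UMIs. The named genes are the 5 members, the 3 genes of each list with the most UMIs in 7 sets of cells (some are not printed where others carry the comparison), and the 5 genes most correlated with each member, of which 1 is not reported here; other names were chosen after values were seen. The members and lists were chosen with earlier results of these data known. On Poisson counts simulated for the 16 classes with 200 changed genes each, the intervals covered 93.5% to 99.0% of changed and 95.4% to 96.9% of unchanged genes. Tools were Python 3.11.15, NumPy 2.4.6, SciPy 1.17.1, pandas 2.3.3, Biopython 1.88, matplotlib 3.10.9, R 4.3.3 and, for TMM factors, edgeR 4.0.16.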

Additional observations from a re-analysis of the deposited data

Results flagged for a closer look

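Ifi203 went in opposite directions in neighbouring myeloid classes, with intervals on opposite sides of 0: its log2 ratio, C435A over WT, was 0.38 (0.01 to 0.74) in C1q macrophages and -1.22 (-1.64 to -0.80) in nonclassical monocytes. Whether the 2 classes differ was not tested, since each group is 1 library. The values rest on 96 and 187 UMIs in C1q macrophages and on 73 and 147 UMIs in nonclassical monocytes, C435A first. Without cells that hold interferon response transcripts the ratios were 0.64 and -1.24, and when cells were counted in every class whose gate they passed they were 0.31 and 0.10. In C1q macrophages summed T cell transcripts were at 336 CPM in the C435A tumour library and 249 CPM in the WT tumour library, and in nonclassical monocytes at 29.4 and 37.2 CPM; their part in the ratios was not tested.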

How the results depend on the processing

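Of 665 values under alternatives for 66 log2 ratios (C435A over WT), 557 lay within the counting interval of the ratio as reported, 88 lay outside it, and 20 changed sign where that interval had excluded 0. Counting cells in every class whose gate they passed turned 8: other T Ifi203 0.15 and Ifi209 0.045, neutrophil Ifi209 0.15, alveolar macrophage Ifi203 0.14, Ifi209 0.15 and Ifi213 0.53, and nonclassical monocyte Ifi203 0.10 and Ifi209 0.13. Thinning to 1000 UMIs per cell turned 6: all kept cells Ifi203 -0.18 and Ifi209 -0.060, CD4 T Ifi203 0.011, other T Ifi208 0.15 and Ifi209 0.046, and classical monocyte Ifi209 0.040. Leaving out the top 5% of cells by UMIs gave -0.13 for Ifi203 and -0.064 for Ifi209 over all kept cells. Leaving out cycling cells gave 0.064 for CD8 T Ifi203 and 0.23 for CD8 T Ifi209, and weighting states alike 0.013 for CD8 T Ifi209 and 0.14 for CD4 T Ifi213. Over all kept cells Ifi203 was 0.11 under TMM and 0.17 under median-ratio scaling, Ifi209 0.19 and 0.24. Median-ratio scaling gave -0.57 for Ifi204, 0.065 for Ifi208 and -0.15 for Ifi213. Thinning gave -0.42, -0.36 and -0.54, leaving out the top 5% gave -0.26 for Ifi208 and -0.45 for Ifi213, and leaving out cells with interferon response transcripts -0.52 for Ifi204. The gate rule as first written left out every cell passing several gates and did not need F13a1 or Vcan in classical monocytes. It put 11 of 61 ratios outside their counting interval and turned 0. No setting with stricter barcode filters, no filter or a raised gate minimum moved a ratio by more than counting error. The causes were not tested. No paired analysis was possible because each group is 1 library. Depth limits 19 of 80 pairs of a member and a class, which had under 20 UMIs.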
